A study of Homo sapiens with 25 samples.

Results

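NKX2-1-negative FOXA sites are places in the genome of the lung adenocarcinoma line NCI-H2087 where both FOXA1 and FOXA2 were found and NKX2-1 was not. They were chosen by the peak calls of those 3 proteins, as the FOXA1 peaks on chromosomes 1 to 22 and X that overlap a FOXA2 peak and no NKX2-1 peak of the same line by at least 1 bp. Of 67706 FOXA1 peaks, 22704 (33.5%) met this rule. A further 39351 (58.1%) overlapped peaks of both FOXA2 and NKX2-1 and are called NKX2-1-positive FOXA sites. The remaining FOXA1 peaks had no FOXA2 peak: 3774 of them lacked NKX2-1 as well, and 1877 overlapped NKX2-1.

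FOXA1 and FOXA2 are forkhead transcription factors known as pioneer factors, which can bind their motif in compacted chromatin and act in the lung, liver, gut and prostate. NKX2-1 is the homeodomain factor of the thyroid and lung lineage, drives surfactant genes in alveolar type 2 cells, and is known to work together with FOXA factors in lung adenocarcinoma. H3K4me1 marks enhancers whether or not they are active, H3K27ac marks active enhancers and promoters, and H3K4me3 marks promoters. CTCF is the insulator protein that, with cohesin, anchors chromatin loops.

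The study profiled 4 untreated, established lung adenocarcinoma lines by chromatin immunoprecipitation and sequencing. NCI-H2087 was profiled with 11 antibodies: FOXA1, FOXA2, NKX2-1, SOX2, c-Jun, EP300, CTCF, RNA polymerase II, H3K4me3, H3K27ac and H3K4me1. NCI-H358, NCI-H441 and HCC364 were profiled for NKX2-1, H3K27ac and H3K4me1. No line carries a treatment or an introduced construct in the labels, each line and antibody is 1 library, and FOXA1 and FOXA2 were profiled in NCI-H2087 alone. The 20 lists hold 7406 (EP300) to 121789 (HCC364 H3K4me1) peaks. Relative depth was taken as the lowest local background in a list, solved from the fold and p of its peaks. In NCI-H2087 it ran from 1.13 fragments for c-Jun to 4.19 fragments for H3K4me3. With 1 library each, differences between sets of sites have no replicate check, and intervals are exact (Clopper-Pearson) 95% binomial intervals that cover counting error only. A site without a peak is a site where none was called at this depth and threshold, which does not show that the protein or mark was absent.

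Sequence was at hand for promoters alone, so motifs were searched only at promoters bound close to their start site. Of the NKX2-1-negative FOXA sites, 2.76% lay within 1 kb of a start site, so the motif shares do not describe the sites as a whole. Of 34789 promoter windows, each 300 bases long (250 before to 50 after the start site, RefSeq, GRCh38.p14), 221 held the FOXA1 summit of an NKX2-1-negative FOXA site and 1022 that of an NKX2-1-positive FOXA site. The forkhead motif, searched as TGTTTAC or TATTTAC on both strands, was present in 47.1% (40.3 to 53.9) of the NKX2-1-negative windows, 27.7% (25 to 30.5) of the NKX2-1-positive windows and 5.97% of all windows. The NK2 homeobox motif (CACTTGA or CACTTAA or CAAGTG, both strands, where the reverse of CACTTGA always holds CAAGTG) was in 15.8% (11.3 to 21.3), 17.9% (15.6 to 20.4) and 13.7%. The AP-1 motif (TGACTCA or its reverse complement TGAGTCA) was in 11.8% (7.83 to 16.8), 16.4% (14.2 to 18.9) and 4.93%. These are matches of letters in a window, and binding to them was not measured. The stretches printed here lie under the strongest FOXA1 summits with a forkhead match close by and before the start site, among genes with a full symbol, 4 from NKX2-1-negative FOXA sites and then 2 from NKX2-1-positive FOXA sites that also hold an NK2 match. Capitals mark the forkhead match and, in the last pair only, the NK2 match, and each sequence runs 5′ to 3′ on the strand of the gene.
TPRG1L, chr1:3624765-3624853, plus strand: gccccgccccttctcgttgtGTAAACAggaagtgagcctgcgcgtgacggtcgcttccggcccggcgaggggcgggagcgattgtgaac
CTSF, chr11:66568607-66568702, minus strand: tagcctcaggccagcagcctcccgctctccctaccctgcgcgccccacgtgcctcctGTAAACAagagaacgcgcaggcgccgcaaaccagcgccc
MAML3, chr4:140154185-140154257, minus strand: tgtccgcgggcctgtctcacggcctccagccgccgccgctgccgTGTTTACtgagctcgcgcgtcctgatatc
TRMT61A, chr14:103528963-103529083, plus strand: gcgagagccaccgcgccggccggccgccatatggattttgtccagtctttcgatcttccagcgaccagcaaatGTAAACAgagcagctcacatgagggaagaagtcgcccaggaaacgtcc
SERTAD4-AS1, chr1:210234052-210234135, minus strand: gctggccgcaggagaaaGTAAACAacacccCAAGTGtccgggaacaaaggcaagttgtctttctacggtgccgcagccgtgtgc
SPRR1B, chr1:153030963-153031083, plus strand: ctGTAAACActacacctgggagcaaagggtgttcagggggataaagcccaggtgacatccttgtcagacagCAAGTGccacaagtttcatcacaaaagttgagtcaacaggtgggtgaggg

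The FOXA1 fold, which is the summit pileup over the local background as the authors' caller wrote it, was 61 at TPRG1L and 46.8 at CTSF, the gene of the lysosomal protease cathepsin F. It was 35.2 at MAML3, the gene of a Notch coactivator, and 34.2 at TRMT61A, the gene of a tRNA methyltransferase. All 4 of these sites overlapped H3K4me3, and those of TPRG1L, MAML3 and TRMT61A overlapped H3K27ac. NKX2-1 was called at the MAML3 site in NCI-H358, NCI-H441 and HCC364, at the TRMT61A site in NCI-H358 and at neither of the others. The NKX2-1-positive stretches had a FOXA1 fold of 39.3 at SERTAD4-AS1 and 35.2 at SPRR1B, the gene of a cornified envelope protein.

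Few of the NKX2-1-negative FOXA sites carried the marks of active chromatin. H3K27ac overlapped 14.1% of them (13.7 to 14.6, 3212 sites), against 58.0% (57.5 to 58.5) of the NKX2-1-positive FOXA sites, and 40.9% of all FOXA1 peaks. H3K4me1 overlapped 30.3% (29.7 to 30.9, 6870 sites), against 74.9% of the NKX2-1-positive FOXA sites and 56.3% of all FOXA1 peaks. CTCF was closer between the sets, at 9.84% (9.46 to 10.2, 2234 sites) against 13.1% (12.8 to 13.5), with 12.1% of all FOXA1 peaks. With the 20000 strongest CTCF peaks alone, the CTCF difference of -3.28 percentage points turned to 0.0835, so its direction depends on the list. The share with H3K4me3 did not separate them, at 12.9% (2924 sites) against 12.8% (5018 sites) and 13.0% of all FOXA1 peaks. The median H3K4me3 fold at those sites did differ, at 18.8 against 72.0.

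The other proteins were rarer still at the NKX2-1-negative FOXA sites. RNA polymerase II overlapped 5.12%, against 22.6% of the NKX2-1-positive FOXA sites and 16.1% of all FOXA1 peaks. The AP-1 subunit c-Jun overlapped 2.26% (514 sites), against 39.7%, with 24.8% of all FOXA1 peaks. SOX2, a factor of the foregut and of squamous cells, overlapped 0.788% (179 sites) against 21.3%, with 12.7% of all FOXA1 peaks. EP300, the acetyltransferase that deposits H3K27ac, overlapped 0.110% (25 sites) against 13.1%, with 7.87% of all FOXA1 peaks. The EP300 and SOX2 lists are the shortest of the series. FOXA1 peaks without FOXA2 and without NKX2-1 had H3K27ac at 12.5%, H3K4me1 at 20.9% and CTCF at 10.6%. They had RNA polymerase II at 4.95%, c-Jun at 1.83%, SOX2 at 0.0530% and EP300 at 0.106%, so low shares were not particular to sites with FOXA2.

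**Figure D1:**
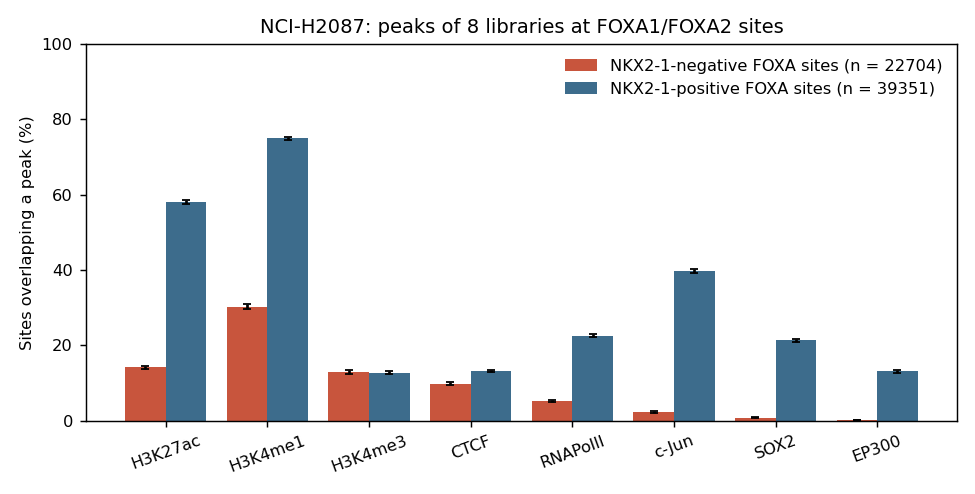
Percent of sites that overlap a peak of each NCI-H2087 library, for NKX2-1-negative (left bar of each pair) and NKX2-1-positive FOXA sites, with exact 95% binomial intervals. The sets differ most for H3K4me1 (30.3% against 74.9%) and H3K27ac (14.1% against 58.0%), and H3K4me3 is level (12.9% against 12.8%).

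Taken as combinations, 51.8% of the NKX2-1-negative FOXA sites (11758) overlapped none of H3K27ac, H3K4me1, H3K4me3 and CTCF, against 14.3% of the NKX2-1-positive FOXA sites and 29.6% of all FOXA1 peaks. H3K4me1 together with H3K27ac was found at 9.89% against 49.8% (33.7% of all FOXA1 peaks), and H3K4me1 without H3K27ac at 20.4% against 25.1% (22.6% of all FOXA1 peaks). H3K27ac without H3K4me1 was found at 4.26% against 8.22% (7.14% of all FOXA1 peaks). CTCF without any of the 3 histone marks was found at 6.92% (1570 sites) against 1.94% (4.05% of all FOXA1 peaks). H3K4me3 without H3K27ac was found at 7.58% (1721 sites) against 1.03% (407 sites, 3.48% of all FOXA1 peaks), and without H3K4me1 as well at 6.78% (1539 sites) against 0.600% (236 sites, 2.90% of all FOXA1 peaks). Of FOXA1 peaks without FOXA2 and NKX2-1, 62.9% overlapped none of H3K27ac, H3K4me1, H3K4me3 and CTCF. CTCF without the 3 histone marks was at 8.32% of them and H3K4me3 without H3K27ac at 4.32%.

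FOXA binding itself was weaker in height at these sites. The median FOXA1 fold was 8.20 (5th to 95th percentile 4.55 to 22.2), against 12.2 (4.81 to 56.7) at the NKX2-1-positive FOXA sites, with a median of 37 against 61 fragments at the summit and a median width of 385 against 562 bp. The median FOXA2 fold was 8.97 against 14.6, and the log2 ratio of FOXA2 to FOXA1 fold had a median of 0.10 against 0.22. The ranges overlap widely, and the highest FOXA1 fold was 108 against 306. Where the histone marks were present they were lower too, with a median fold of 9.20 against 11.1 for H3K27ac and 5.34 against 6.66 for H3K4me1. For H3K4me3 it was 18.8 against 72.0, while for CTCF it was higher, at 39.0 against 21.9.

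The gap in both marks was also there within quartiles of FOXA1 fold, although fold was not matched inside a quartile. In the quartiles of FOXA1 fold (bounded at 6.87, 10.0 and 17.7, lowest first), H3K27ac overlapped 14.5, 11.4, 13.4 and 24.9% of NKX2-1-negative FOXA sites, against 54.5, 52.7, 56.8 and 64.2% of NKX2-1-positive FOXA sites. H3K4me1 overlapped 29.5, 26.4, 31.1 and 44.6%, against 65.3, 67.9, 73.6 and 85.8%. CTCF overlapped 8.67, 9.36, 10.1 and 15.1%, against 14.4, 11.8, 12.8 and 13.4%, so in the top quartile the NKX2-1-negative share was the higher of the pair.

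H3K4me3 at the NKX2-1-negative FOXA sites was more frequent where FOXA1 was higher. It overlapped 7.56, 9.77, 19.9 and 24.6% of the NKX2-1-negative FOXA sites from the lowest to the highest quartile, against 16.4, 12.8, 12.0 and 11.1% of the NKX2-1-positive FOXA sites. Among sites over 5 kb from every end of a protein-coding gene, the NKX2-1-negative share was 2.73% at a FOXA1 fold up to 5, 2.83% from 5 to 7 and 6.74% from 7 to 10. It was 15.8% from 10 to 14, 23% from 14 to 20, 20.5% from 20 to 30 and 24.1% above 30. The NKX2-1-positive share stayed between 5.99% and 8.83% over the same bins.

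**Figure D2:**
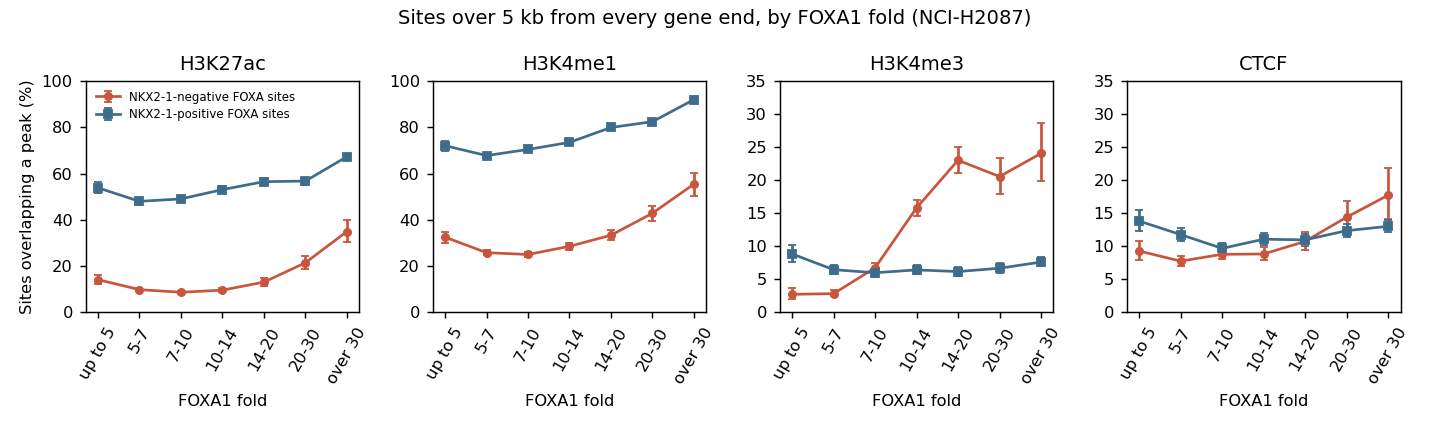
Percent of distal NKX2-1-negative (circles) and NKX2-1-positive FOXA sites (squares) with each mark, by bins of FOXA1 fold, with exact 95% intervals; the vertical scale ends at 100% for H3K27ac and H3K4me1 and at 35% for H3K4me3 and CTCF. H3K4me3 at the NKX2-1-negative FOXA sites is 2.73% in the lowest bin and 24.1% in the highest, while at the NKX2-1-positive FOXA sites it lies between 5.99% and 8.83%.

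Most of this distal H3K4me3 was narrow, weak and flanked the FOXA1 summit. Among distal NKX2-1-negative FOXA sites, 1432 overlapped H3K4me3 and no H3K27ac, and 58 of them (4.05%) overlapped H3K4me1. Their H3K4me3 peaks had a median fold of 9.25 and a median width of 483 bp. Over all 4015 distal H3K4me3 peaks without H3K27ac the medians were 9.24 and 517 bp. Low fold and small width were thus not particular to the FOXA sites. Over all H3K4me3 peaks, also those near genes, the medians were 50.1 and 1548 bp. At the 1432 sites the median gap between the H3K4me3 and FOXA1 summits was 170 bp. The H3K4me3 summit lay 100 to 300 bp from the FOXA1 summit at 1169 of them (81.6%) and within 50 bp at 25 (1.75%). The 186 distal NKX2-1-positive FOXA sites with H3K4me3 and no H3K27ac had a median H3K4me3 fold of 14.3, a width of 832.5 bp and a gap of 227.5 bp, with 48.4% at 100 to 300 bp. With H3K27ac, the H3K4me3 peaks were wider and farther in both sets. The 411 distal NKX2-1-negative FOXA sites with both marks had a median H3K4me3 fold of 44.6, a width of 1260 bp and a gap of 341 bp, against 16.7, 1182 bp and 394 bp at the 1994 NKX2-1-positive ones. Seen from the mark, 4015 distal H3K4me3 peaks lacked H3K27ac, and 34.2% (32.8 to 35.7) of them overlapped an NKX2-1-negative FOXA site, against 3.64% (3.08 to 4.26) that overlapped an NKX2-1-positive one. Of the 4518 distal H3K4me3 peaks with H3K27ac the shares were 9.69% against 40.2%, and of all 22512 H3K4me3 peaks 12.8% against 20.1%.

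These are among the weaker H3K4me3 peaks, and with the 15000 strongest H3K4me3 peaks alone 122 of the 1432 sites remained. The lowest background of the H3K4me3 library was 4.19 fragments, next to 4.14 for FOXA2, and its median over peaks was 5.17 against 5.44 fragments for FOXA2. The part of depth or antibody in the pattern was not tested. The 5 with the highest FOXA1 fold and neither H3K27ac nor H3K4me1 were listed after values were seen. The first lay in DNM3, the gene of a dynamin (chr1:172056005-172056510, FOXA1 fold 36.4, H3K4me3 fold 25.3). The next were 42.8 kb from CCDC54 (FOXA1 fold 36.3, H3K4me3 fold 7.99), 6.81 kb from ZNHIT6 (34.5 and 7.90) and in KLF15, the gene of a zinc finger factor (34.5 and 16.4). The last was 10.7 kb from TUBB8B (32.7 and 23.3), and NKX2-1 was called at the ZNHIT6 site in NCI-H358 and NCI-H441.

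**Figure D3:**
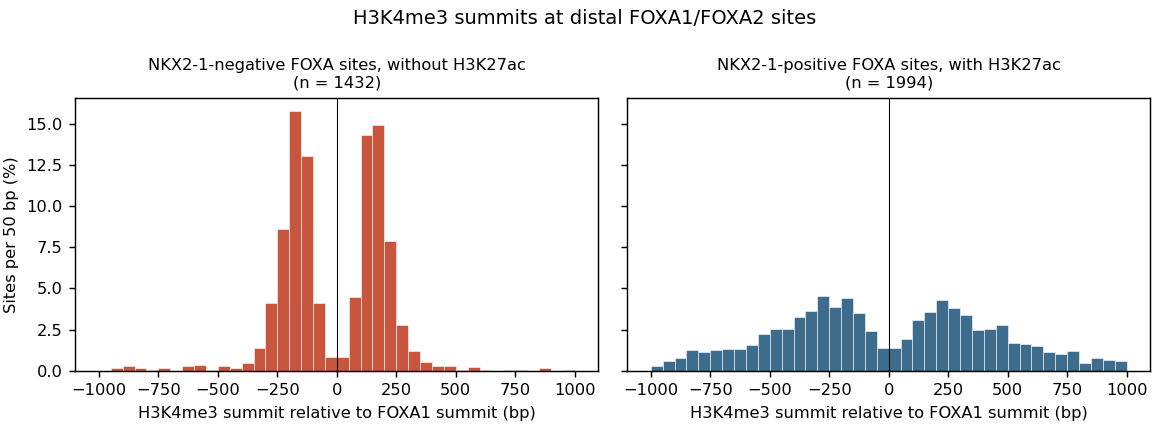
Position of the H3K4me3 summit relative to the FOXA1 summit in 50 bp bins (percent of sites), for distal NKX2-1-negative FOXA sites without H3K27ac (left, n = 1432) and distal NKX2-1-positive FOXA sites with H3K27ac (right, n = 1994). On the left the summits form a peak on either side of the FOXA1 summit, with 81.6% at 100 to 300 bp.

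CTCF, where it met an NKX2-1-negative FOXA site, was strong and close to the FOXA1 summit. The median CTCF fold at these 2234 sites was 39.0, against 21.9 at the 5162 NKX2-1-positive FOXA sites with CTCF and 23.5 over all 61072 CTCF peaks. The median gap between the CTCF and FOXA1 summits was 72 bp against 169 bp, and 61.4% against 34.6% lay within 100 bp. Their median FOXA1 fold was 8.75 against 12.3. The high CTCF fold was not particular to this set. At FOXA1 peaks without FOXA2 its median was 40.2 where NKX2-1 was also lacking and 38.5 where NKX2-1 was called. FOXA1 peaks were narrower over all NKX2-1-negative FOXA sites (median 385 against 562 bp), and the part of peak width in the summit gap was not tested.

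NKX2-1-negative FOXA sites lay a little farther from genes. They were within 1 kb of an end of a protein-coding gene in 5.07% of cases (1150 sites), against 7.04% of NKX2-1-positive FOXA sites and 6.67% of all FOXA1 peaks. Within 5 kb the shares were 15.1%, 17.2% and 16.8%, and within 50 kb 55.8%, 61.4% and 59.6%. The median distance to a gene end was 39215 bp against 31927 bp. The summit lay inside a gene in 49.94% against 50.03% (49.9% of all FOXA1 peaks), and within 1 kb of a start site in 2.76% against 4.55% (4.21% of all FOXA1 peaks). H3K4me3 at the NKX2-1-negative FOXA sites was within 5 kb of a start site in 29.8% (28.2 to 31.5) of cases, against 46.2% (44.8 to 47.6), and came with H3K27ac in 41.1% against 91.9%.

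H3K27ac was most frequent at members close to an NKX2-1 peak. The median gap to the nearest NKX2-1 peak of NCI-H2087 was 9593 bp. H3K27ac was found at 68.3% of the 221 sites up to 100 bp from an NKX2-1 peak, at 50.2% of 2458 sites up to 1 kb, at 13.8% of 8916 up to 10 kb, at 5.80% of 9823 up to 100 kb and at 2.1% of 1286 beyond. H3K4me1 ran in the same order at 65.6, 66.7, 37.8, 17.1 and 2.49%. CTCF was 18.1, 8.14, 9.84, 10.6 and 6.22%, while the median FOXA1 fold was 6.95, 7.40, 8.02, 8.41 and 9.14. H3K4me3 was high at both ends, at 43.4, 24.9, 8.02, 11.2 and 31.3%. The H3K27ac peak that covered a member also held an NKX2-1 peak at 1553 of the 3212 acetylated members (48.3%). Of all H3K27ac peaks, 68.5% held one. The former is a share of sites chosen to lack NKX2-1 and the latter a share of peaks, so they cannot be compared directly.

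**Figure D4:**
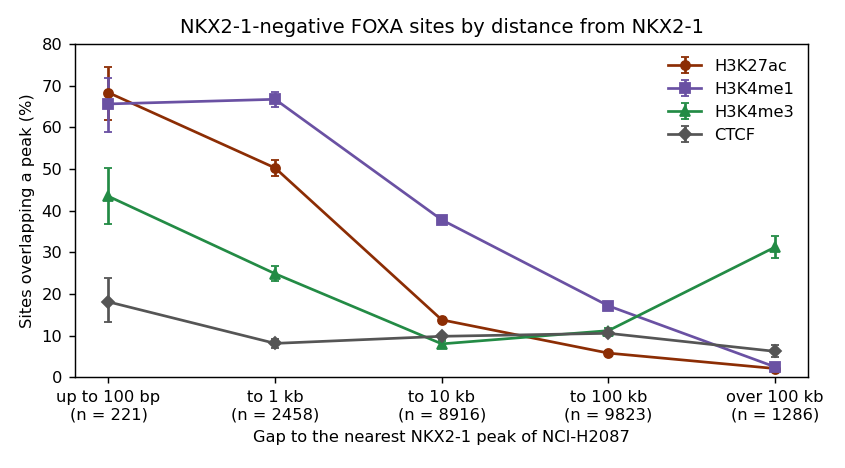
Percent of NKX2-1-negative FOXA sites with each mark by the gap to the nearest NKX2-1 peak of NCI-H2087, with exact 95% intervals. H3K27ac is 68.3% at up to 100 bp and 2.1% beyond 100 kb, and H3K4me3 is 43.4% and 31.3% at the same ends with 8.02% between 1 and 10 kb.

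The distance to NKX2-1 is part of how the sites were chosen, so these shares are a description. At the edge of the rule, the 221 members up to 100 bp from an NKX2-1 peak had H3K27ac at 68.3%, and the 266 FOXA1/FOXA2 peaks left out for an NKX2-1 overlap of at most 100 bp had it at 63.5%. H3K4me1 was 65.6% against 56.4%, CTCF 18.1% against 21.8% and the median FOXA1 fold 6.95 against 6.69. For FOXA2, 1 site lay just inside and 1 just outside.

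NKX2-1 was called at some of these sites in the other lines. It overlapped 15.1% of them in NCI-H441 (3417 sites), 14% in NCI-H358 (3180) and 13.6% in HCC364 (3091). At the NKX2-1-positive FOXA sites the shares were 78.6, 66.4 and 61.9%, and over all FOXA1 peaks 53.7, 45.7 and 43.2%, with the lines in the same order. In at least 1 of the 3 lines NKX2-1 was called at 27.6% (27 to 28.2, 6259 sites) against 87.3%, with 63.8% of all FOXA1 peaks, and in all 3 at 3.44% (781 sites) against 47.4%, with 30.3% of all FOXA1 peaks. The other 16445 (72.4%) had it in none of the 4 lines.

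Most of the bound members were bound in a single line: 1243 in NCI-H441, 1203 in NCI-H358 and 1165 in HCC364. Pairs of lines held 722 (NCI-H358 and NCI-H441), 474 (NCI-H358 and HCC364) and 671 (NCI-H441 and HCC364). The NKX2-1 peaks at bound members had a median fold of 7.12 in HCC364, 6.88 in NCI-H441 and 6.30 in NCI-H358, against 13.6, 13.5 and 10.6 at the NKX2-1-positive FOXA sites and 9.03, 9.14 and 7.78 over all NKX2-1 peaks of the line. Whether FOXA1 or FOXA2 occupies these sites in the 3 other lines was not measured.

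Members bound by NKX2-1 in more of the other lines also carried more marks in NCI-H2087 itself. At members bound in 0, 1, 2 and 3 other lines (16445, 3611, 1867 and 781 sites), NCI-H2087 H3K27ac overlapped 10.6, 21.2, 25.7 and 28.9% and H3K4me1 24.9, 42.6, 45.7 and 49.3%. CTCF overlapped 7.08, 14.7, 20.0 and 20.9% and c-Jun 0.772, 4.10, 7.18 and 13.4%. H3K4me3 was 13.8, 10.3, 10.7 and 10.6%, and SOX2 0.876, 0.609, 0.482 and 0.512%. The median FOXA1 fold was 8.02, 8.56, 8.83 and 9.44.

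Where NKX2-1 was present in 1 other line, H3K27ac was most frequent in that line. At members bound in NCI-H358 alone, H3K27ac overlapped 42.2% in NCI-H358, against 12.6% in NCI-H441, 11.7% in HCC364 and 19.3% in NCI-H2087. At members bound in NCI-H441 alone it overlapped 35.6% in NCI-H441, against 15.6% in NCI-H358, 13.8% in HCC364 and 21.9% in NCI-H2087. At members bound in HCC364 alone it overlapped 46.1% in HCC364, against 17.3% in NCI-H358, 22.6% in NCI-H2087 and 15.1% in NCI-H441. The bound line exceeded the mean of the other lines in 3 of 3 cases, at 41.3% against 16.6% on average, a difference of 24.6 ± 5.34 percentage points (SD, n = 3 lines). NCI-H2087 cannot be a bound line here, because the choice of sites rests on its NKX2-1 list. With NCI-H2087 left out, the means were 41.3% against 14.3%, a difference of 26.9 ± 5.26 percentage points (SD, n = 3 lines). An exact one-sided permutation of the 3 line labels gave p = 0.167 (Benjamini-Hochberg over both marks 0.167), the smallest that 3 lines allow, so the design cannot reach 0.05. Permuting all 4 labels gave p = 0.0417 (exact, adjusted 0.0417), which treats NCI-H2087 as interchangeable with the other lines and is therefore no support. With the 20000 strongest H3K27ac peaks of each line the difference was 12.1 percentage points.

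H3K4me1 did the same, at 81.2% in NCI-H358 against 37.2, 33.7 and 40.9% in NCI-H441, HCC364 and NCI-H2087, and at 75.2% in NCI-H441 against 47.3, 38.5 and 48.5% in NCI-H358, HCC364 and NCI-H2087. At members bound in HCC364 alone it was 60.8% in HCC364, against 36.8, 36.1 and 38.2% in NCI-H358, NCI-H441 and NCI-H2087. The mean was 72.4% in the bound line against 39.7% in the other lines, a difference of 32.7 ± 10.3 percentage points (SD, n = 3 lines, higher in 3 of 3). With NCI-H2087 left out it was 34.1 ± 10.8 percentage points (exact permutation p = 0.167, adjusted 0.167), and with the 20000 strongest H3K4me1 peaks of each line it was 15.6. Members bound in all 3 other lines had H3K27ac at 54.4% in HCC364, 51.5% in NCI-H358 and 45.5% in NCI-H441, and at 28.9% in NCI-H2087.

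**Figure D5:**
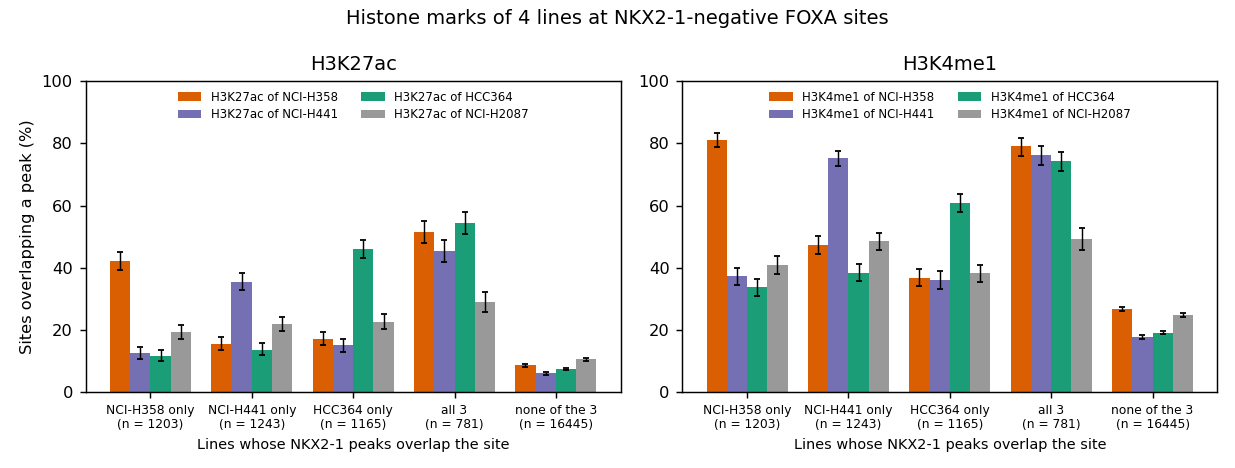
Percent of NKX2-1-negative FOXA sites with H3K27ac (left) and H3K4me1 (right) in NCI-H358, NCI-H441, HCC364 and NCI-H2087, by the lines whose NKX2-1 peaks overlap the site, with exact 95% intervals. In the 3 groups bound in a single line, that line has the tallest bar, for example 42.2% H3K27ac in NCI-H358 at members bound in NCI-H358 alone.

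Across all members, the marks were less frequent than at NKX2-1-positive FOXA sites in each of the 4 lines, although the sites were defined in NCI-H2087. H3K27ac overlapped 14.1% of the NKX2-1-negative FOXA sites in NCI-H2087, against 58.0% of the NKX2-1-positive ones. It overlapped 15.2% against 45.2% in NCI-H358 (33.5% of all FOXA1 peaks), 12.3% against 49.0% in NCI-H441 (34.8%) and 14% against 42.3% in HCC364 (31.6%). H3K4me1 overlapped 36.1% against 67.3% in NCI-H358 (53.9% of all FOXA1 peaks), 28.9% against 72.5% in NCI-H441 (54.7%) and 28.3% against 59.4% in HCC364 (46.5%). For H3K27ac the mean over the lines was 13.9 ± 1.21% against 48.6 ± 6.83%, a difference of -34.7 ± 7.1 percentage points (SD, n = 4 lines, lower in 4 of 4). NCI-H2087, whose NKX2-1 list split the 2 sets, had the largest difference, at -43.9 percentage points. Without it the mean difference was -31.7 percentage points. Exact flipping of the 4 signs (two-sided permutation) returned p = 0.125, the smallest possible with 4 lines. For H3K4me1 the means were 30.9 ± 3.61% against 68.5 ± 6.89%, a difference of -37.6 ± 7.54 percentage points (SD, n = 4, exact p = 0.125).

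Among genes, NRIP1, a corepressor of nuclear receptors, had the most NKX2-1-negative FOXA sites when each site was given to its nearest protein-coding gene within 50 kb of a gene end. It had 11 such sites, 3 of them acetylated, against 6 NKX2-1-positive ones. SSBP2 had 10 against 9. ALCAM, a cell adhesion molecule, had 9 against 9 (5 acetylated), TGFA, a ligand of the EGF receptor, 9 against 10, BASP1 9 against 6, and MACC1, a regulator of the MET receptor, 9 against 8. There were 8 at BLID (4 NKX2-1-positive), AKAP13 (8), the forkhead gene FOXP1 (3), FER1L6 (3), the chromatin protein gene HMGA2 (12) and PLA2G4A (12), the gene of cytosolic phospholipase A2. All 12 genes also had NKX2-1 peaks of NCI-H2087, from 7 at FER1L6 to 21 at TGFA. In all, 12674 sites were assigned to 7507 genes.

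Of these 7507 genes, 907 had no NKX2-1 peak assigned, and at 113 of the 907 a site was acetylated. An NKX2-1 peak nearer to another gene is not counted, so such a peak can still lie close by. With every site within 50 kb of a gene end counted, 3990 of the 12324 genes with a site had an acetylated one. That count gives a site to more than its nearest gene, so it cannot be compared with the 113 of 907. The share of the 7507 genes with an acetylated site is not given here. SBF1 and SLC75A1 had 2 sites each, both acetylated. SLC16A6, of the monocarboxylate transporter family, had 4 sites, and FOCAD, the kinase gene GRK3, ISOC1 and LIN9, a subunit of the DREAM cell cycle complex, had 3 each, with 1 acetylated site at each of these genes. Of genes with members bound in 1 other line alone, ATXN1 and the olfactory receptor gene OR13H1 had 3 each in NCI-H358 (SSBP2 and MACC1 2 each). TGFA, HMGA2, BBS9 and the claudin gene CLDN14 had 2 each in NCI-H441. FBXL7 had 3 in HCC364, where the corepressor gene TLE1, the chromatin remodeller gene CHD2 and LHFPL2 had 2 each.

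The gene lists were counted against all genes. Within 50 kb of a gene end, at least 1 NKX2-1-negative FOXA site was found at 61.7% of all 19970 protein-coding genes (median 1 site), and these sites were 33.1% of the FOXA1/FOXA2 sites counted. For endoderm transcription factors the figures were 10 of 14 genes (median 1), for gastric and intestinal genes 9 of 14 (median 1), for hepatic genes 9 of 12 (median 1.5) and for alveolar type 2 genes 10 of 15 (median 1). Alveolar type 1 genes had sites at 7 of 10 (median 1.5), airway secretory genes at 9 of 12 (median 2), keratin and junction genes at 10 of 14 (median 1) and basal genes at 6 of 10 (median 2). Ciliated cell genes had them at 7 of 8, steroid receptor genes and targets at 9 of 14, mesenchymal genes at 8 of 10 and immune genes at 6 of 10 (median 1 each). Neuroendocrine genes and housekeeping genes each had them at 5 of 10 (median 0.5).

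Single genes differed in the balance of the sets, counted here over every site within 50 kb of a gene end, also where another gene is nearer. HNF4A, the hepatic and intestinal nuclear receptor, had 4 NKX2-1-negative FOXA sites and 0 NKX2-1-positive ones, none of the 4 acetylated, and AFP, alpha-fetoprotein, likewise had 4 and 0, with 1 acetylated. NKX2-1 itself had 1 against 12, FOXA1 1 against 8, FOXA2 3 against 3, GATA6 1 against 2 and the surfactant gene SFTPB 3 against 6. With each site given to its nearest gene alone, HNF4A had 2 against 0, NKX2-1 1 against 11, FOXA1 1 against 4 and SFTPB 0 against 0, while FOXA2 and GATA6 had the same counts. LAMP3, a lysosomal protein of alveolar type 2 cells, had 6 against 7, and the lipid transporter gene ABCA3 4 against 2. The glucocorticoid receptor gene NR3C1 had 6 against 5 and the mineralocorticoid receptor gene NR3C2 4 against 1. KRT7, a keratin of simple epithelia, had 4 against 8, and all 4 were acetylated, while the tight junction gene TJP1 had 5 against 3 with none acetylated. The secretory gene AGR2 had 4 against 5 and GRHL2 4 against 11.

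The strongest members by FOXA1 fold were heterogeneous in their marks. The first lay in PTAFR, the gene of the platelet-activating factor receptor (chr1:28152738-28153696), with a FOXA1 fold of 108, a FOXA2 fold of 123 and 402 FOXA1 fragments at the summit. It overlapped H3K27ac and H3K4me1, and NKX2-1 was called there in NCI-H441 (fold 10.4), NCI-H358 (7.60) and HCC364 (6.40). Sites in CBFA2T2 (fold 94.8), SCIMP (88.3) and HDAC1 (76.5), and 1 site 143 kb from PTPN1 (97.6), overlapped H3K4me1 and no H3K27ac. A site in ARHGEF28 (87.5) overlapped CTCF and none of the histone marks in NCI-H2087. One 4.11 kb from TLR6 (78.0) overlapped H3K27ac and H3K4me1. NKX2-1 was called at the ARHGEF28 and CBFA2T2 sites in NCI-H358, NCI-H441 and HCC364. It was called at the TLR6 site in NCI-H441, at the PTPN1 and HDAC1 sites in HCC364 and at the SCIMP site in no other line. The ARHGEF28 site lay 0.457 kb from an NKX2-1 peak of NCI-H2087. The other 3 of the first 10, near LOC124900997, LOC124900996 and LOC124900995 (folds 103, 91.4 and 89.0), lie in a duplicated stretch of chromosome 5, where reads of near-identical copies may be assigned to either, so their values are uncertain. NKX2-1 was called at the LOC124900997 site in NCI-H358 and HCC364, at the LOC124900996 site in NCI-H358 and at the LOC124900995 site in no other line.

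The members with the highest H3K27ac fold lay beside NKX2-1. Those described here were nearest to RPS23 (H3K27ac fold 82.5), RBM39 (71.7), AKAP6 (71.1), ZPLD1 (69.0), LPXN (67.2), C2orf49 (64.9) and DUSP14 (61.3). Their gap to the nearest NKX2-1 peak of NCI-H2087 ran from 0.25 kb at RPS23 to 1.18 kb at LPXN. Their FOXA1 folds ran from 2.75 at AKAP6 to 15.1 at C2orf49, below the folds of the strongest members.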

How the data were processed

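ChIP-seq peak lists of 20 libraries from 4 cell lines were analysed, 1 library per line and antibody, with groups taken from the sample titles. The 5 input libraries were not analysed here. The tools named are MACS2 (2.1.1 and 2.2.7.1), bedtools, SAMtools 1.9, Bowtie2 2.2.9 and Trimmomatic 0.36, with hg38 (GRCh38) as the build, per the submitters' processing notes. The role of each step and the version behind each list are not given in the sources used here. The deposited lists give the fold of the summit over background (a linear ratio), −log10 p and −log10 q, and a display score that was not used. The lowest deposited −log10 q was just above 3 in each list. Peak position and summit offset are the authors' values.

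Overlap meant at least 1 bp. Fold and p were solved together for the summit pileup and local background, within 0.01 in −log10 p, which gave a solution for 99.2% to 100.0% of the peaks of a list and was tested on simulated data. Gene names and ends are those of 19970 protein-coding genes of RefSeq GRCh38.p14, and start sites were at hand for 15811 of them. All 163 genes of 14 lists were found in that table. Shares are given with exact 95% intervals. Line labels were permuted exactly (24 assignments over 4 lines, 6 without NCI-H2087, one-sided), and paired line differences used an exact sign-flip test. Python 3.11.15, numpy 2.4.6, pandas 2.3.3 and scipy 1.17.1 were used.

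The sites, gene lists and tests were chosen with earlier results of these data known. Named genes are the 12 with the most sites, the 8 with the most acetylated sites and no NKX2-1 peak, the 4 per other line with the most sites bound there alone, and genes from the 3 leaders of each list, with FOXA1, FOXA2, HNF4A, GATA6, SFTPB and NKX2-1 always included. Named sites are the 10 with the highest FOXA1 fold and the 8 with the highest H3K27ac fold. Alternatives tried were stricter overlap, stronger peaks, a summit window, distance from NKX2-1, gene distance and leaving out each line. Leaving out NCI-H2087 from the bound-line test and 5 alternatives for distal H3K4me3 were added after the data were seen. Some genes and sites that these rules name are not reported here.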

Additional observations from a re-analysis of the deposited data

How the results depend on the processing

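The number of sites depended on the lists: it was 2140 with the 20000 strongest FOXA1 and FOXA2 peaks and 45269 when the 20000 strongest NKX2-1 peaks alone excluded a site. With FOXA1 and FOXA2 overlapping by 50%, H3K27ac was 13.6% and H3K4me1 29.5%. Over the main set of sites, 15.1% lay within 5 kb of a gene end. With no NKX2-1 peak within 1 kb, H3K27ac was 9.12%, H3K4me1 25.4%, NKX2-1 in at least 1 other line 26.6% and sites within 1 kb of a gene end 3.74%. With the strongest FOXA peaks these were 24.6% for H3K27ac, 50.1% for H3K4me1, 15.3% for CTCF and 39.9% for NKX2-1 elsewhere. With a 500 bp summit window H3K27ac was 14.7% and H3K4me1 31.0%. With the 20000 strongest peaks of each overlapped list the shares were 7.16% (H3K27ac), 7.77% (H3K4me1), 4.89% (CTCF) and 3.22% (NKX2-1 elsewhere). The H3K27ac difference between NKX2-1-negative and NKX2-1-positive FOXA sites, -43.9 points, was -41.0 within quartiles of FOXA1 fold, -43.0 with the window, -28.5 with the strongest listed peaks and -48.5 without NKX2-1 within 1 kb. For H3K4me1, -44.7 points became -40.3, -42.5, -29.5 and -49.0 in the same order. For CTCF, -3.28 points was -2.27 within quartiles and -2.33 with the window, and it reversed to 0.0835 with the strongest CTCF peaks; the cause was not tested. Leaving out each line, the bound-line difference ran from 21.5 to 26.9 points for H3K27ac and from 27.7 to 34.7 for H3K4me1, with p = 0.167 in an exact permutation test, the smallest 3 lines allow. With the 20000 strongest histone peaks it was 12.1 points for H3K27ac and 15.6 for H3K4me1. List genes with a site were 110 within 50 kb and 47 within 10 kb, and 1 of the 12 genes with the most sites was kept at 10 kb. Distal sites with H3K4me3 and no H3K27ac were 1432, and 122 with the 15000 strongest H3K4me3 peaks. With 1 library for each line and antibody, no replicates could be paired. Pairing was limited to setting both site sets side by side within each line. Peaks missed at low depth limit every share.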

Other observations

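The balance of NKX2-1-negative and NKX2-1-positive FOXA sites differed between chromosomes. NKX2-1-negative sites were 44.6% of the 2 sets together on chromosome X, 39.9% on chromosome 4 and 38.9% on chromosome 13, against 29.9% on chromosome 22, 30.4% on chromosome 17 and 31.5% on chromosome 19. Along the genome they fell into 13283 runs with no NKX2-1-positive FOXA site between them, of which 8070 (60.8%) were single sites and 469 held at least 5. The longest run held 15 sites over 5880 kb of chromosome 3 (161889994 to 167770390), with 6 NKX2-1 peaks in between and 0 acetylated members, next to genes that include SI, sucrase-isomaltase of the intestine, and BCHE, butyrylcholinesterase.

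The members with the strongest NKX2-1 peaks in all 3 other lines were chosen after their values were seen. In COA1, at 19.6 kb from STK17A, NKX2-1 had a fold of 47.4 in HCC364, 39.2 in NCI-H358 and 35.2 in NCI-H441, and the nearest NKX2-1 peak of NCI-H2087 lay 0.028 kb away. In CTBP2 the folds were 49.8, 28.7 and 29.0 in the same order, with an NKX2-1 peak of NCI-H2087 at 0.109 kb. A site 260 kb from ASMT on chromosome X had folds of 34.8, 31.9 and 18.4, no H3K27ac in NCI-H2087 and the nearest NKX2-1 peak of that line 83.2 kb away.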
